A study of Mus musculus with 16 samples.

Results

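The mammalian circadian clock is a transcription loop whose core genes are described here in RNA from mouse cortical and hippocampal neurons. The 10 genes were taken by symbol from the gene table of every library: the activators Clock and Arntl, the repressors Per1, Per2, Per3, Cry1 and Cry2, the nuclear receptors Nr1d1 and Nr1d2, and the output gene Dbp. They are 10 of 39179 annotated genes, and all 10 passed the filter on low counts that left 18074 genes for testing. The rule takes them by symbol and uses no measured value, but it was set with earlier results of these data known.

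The material was total RNA of adult mice of strain B6.129S6.SvEvTac, named TERT-AD in the labels of every library, that had received either tamoxifen or vehicle. The series compares neurons in which Tert, the catalytic subunit of telomerase, had been activated with control neurons. Each region, cortex and hippocampus, had a control group and a tamoxifen group of 4 libraries, which makes 4 groups and 16 libraries. Controls and treated mice share the TERT-AD designation. The sources used here do not give the promoter or driver behind the activation, the age of the animals, the way neurons were isolated or the clock hour at which tissue was taken.

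Libraries held 33236178 to 57195203 counts in genes. In every group, libraries 1 and 2 resembled each other, and libraries 3 and 4 did, far more than other pairs of the same group: among genes with over 2000 counts the variance was 3.12 to 6.5 times that of counting alone within such pairs and 13.6 to 748 times between libraries of different pairs. Each pair was therefore added to 1 sample, A for libraries 1 and 2 and B for 3 and 4, which left 2 samples per group and 8 in all. Which libraries came from 1 animal is not stated in the labels, so p-values measure the spread between these samples. An exact permutation test of 2 against 2 samples cannot go below p = 0.333, so the tests below come from edgeR's quasi-likelihood model fitted across all 18074 genes. Cortical tamoxifen B stood apart from the other cortical samples. Mitochondrial genes took 20.1% and 20.69% of its libraries against 29.68% to 32.08% in the others, and its summed oligodendrocyte markers reached 21080 CPM (counts scaled to the library's total, after TMM scaling) against 61480 to 81500. Hippocampal tamoxifen A had a summed choroid plexus level of 41.68 CPM against 7362 to 14930 in the other hippocampal samples. The markers of glia were high in all samples of a material labelled as neurons. In bulk RNA, fewer cells of a type and less RNA per cell cannot be told apart.

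CLOCK and the product of Arntl, BMAL1, form a dimer that binds E-box sequences and activates the Per, Cry, Nr1d and Dbp genes. PER and CRY proteins return to the nucleus and repress the dimer, which closes the loop. REV-ERB proteins, the products of Nr1d1 and Nr1d2, repress Arntl through an element that ROR receptors can also occupy, and DBP activates genes such as Per3 through the D-box. The master clock lies in the suprachiasmatic nucleus, and most other brain regions, cortex and hippocampus included, carry clocks of their own.

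The 3 kinds of element can be read in the promoter windows of RefSeq (assembly GRCm38.p6, the same assembly as mm10). These run from 250 bases before to 50 after each start listed for a gene. Windows were given for 9 of the 10 genes, with 13 windows in all, so some genes had several. The Per1 window shown, chr11:69098699-69098998, lies inside the span of Per1 in the deposited tables, chr11:69095217-69109960. The stretches below are shown because each holds the letters through which one arm of the loop is known to act, and the letters that matched are in capitals. Per3 carried the D-box TTATGTAA in 2 places within chr4:151044776-151044910 (minus strand), Per1 an E-box within chr11:69098753-69098818 (plus strand), Cry1 an E-box within chr10:85185079-85185144 (minus strand) and Arntl a REV-ERB/ROR element within chr7:113207528-113207556 (plus strand).
Per3: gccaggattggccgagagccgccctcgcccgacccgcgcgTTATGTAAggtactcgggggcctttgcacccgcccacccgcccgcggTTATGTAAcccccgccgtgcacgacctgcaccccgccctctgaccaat
Per1: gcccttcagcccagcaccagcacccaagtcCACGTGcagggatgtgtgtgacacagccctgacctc
Cry1: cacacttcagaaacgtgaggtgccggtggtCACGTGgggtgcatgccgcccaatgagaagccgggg
Arntl: ggaaggcagAAAGTAGGTCAgggacggag

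The E-box CACGTG, which reads the same on both strands, was in 7.15% of the 32851 promoter windows of all genes. Among the 13 clock gene windows it was in 2, of Cry1 and Per1. The D-box, searched on both strands as TTATGTAA or TTACGTAA, was in 1.06% of all windows and in 1 of the 13 (Per3). The REV-ERB/ROR element, also searched on both strands, was in 0.107% of all windows and in 1 of the 13 (Arntl). These are matches of letters and not sites of measured binding.

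The order of the genes by level was read from the deposited RPKM values (read counts scaled to gene length and library size), averaged over samples, because only values per length can be compared between genes. Nr1d1 (12.15) and Dbp (10.4) led, followed by Cry2 (5.782), Nr1d2 (5.746), Clock (3.738), Per1 (3.683), Arntl (2.345), Cry1 (2.189), Per3 (1.167) and Per2 (1.137). Of the neighbours in this order, Cry1 and Per3 were the one pair whose sample ranges did not overlap, at 1.78 to 2.639 for Cry1 and 0.8671 to 1.568 for Per3. Nr1d1 exceeded Dbp in 6 of 8 samples and Cry2 exceeded Nr1d2 in 5 of 8. Nr1d1 and Dbp thus stood at the top of the order and Per2 and Per3 at the bottom. Counts per library ran from 233 for Arntl to 5499 for Cry2.

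**Figure D1:**
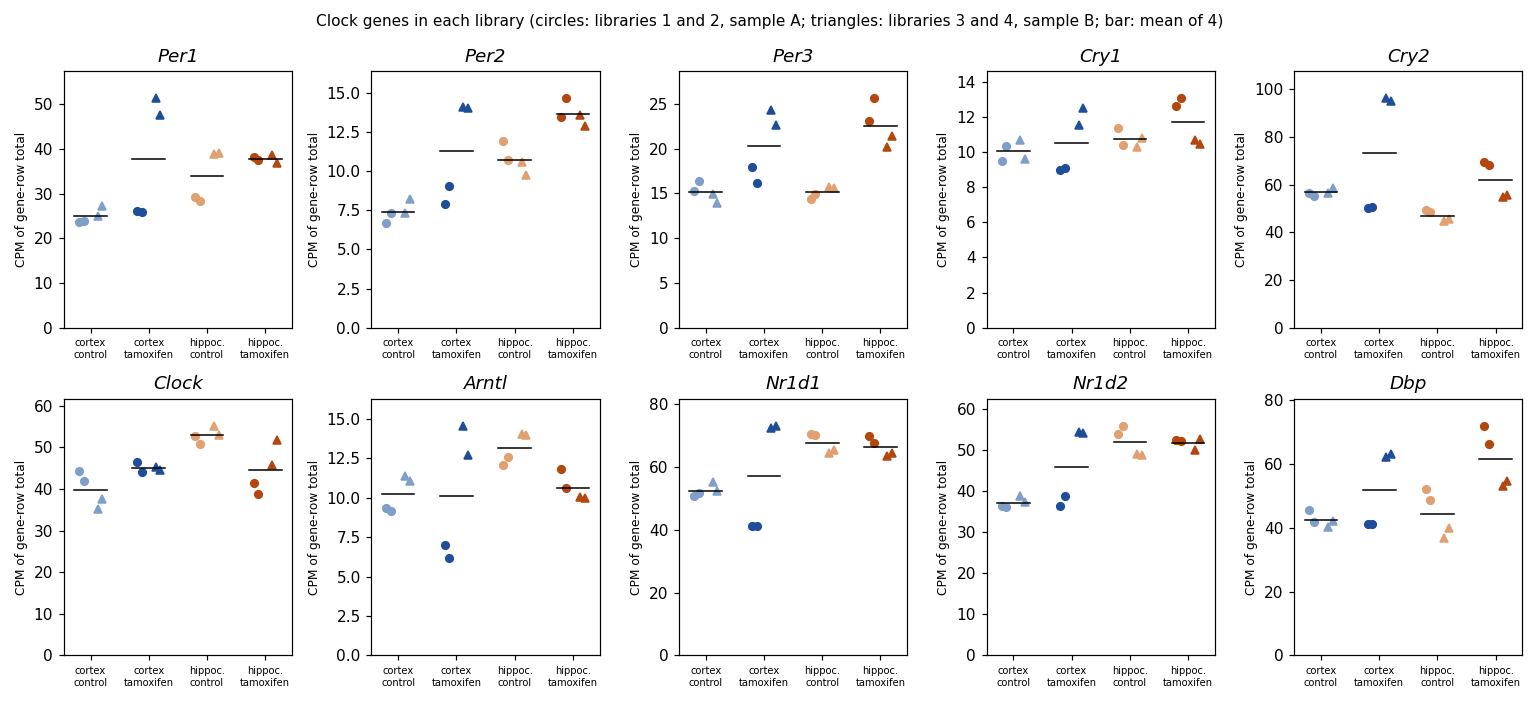
Each panel plots 1 clock gene in all 16 libraries as CPM of the library's total over gene rows (linear axis from 0), with circles for libraries 1 and 2, triangles for libraries 3 and 4 and a bar at the mean of 4. In Per3 all 4 hippocampal tamoxifen libraries (20.17 to 25.62) lie above all 4 hippocampal controls (14.4 to 15.75), while in cortex the triangles of the tamoxifen group stand apart from its circles in most panels.

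Within this plot the scale is the plain total. On that scale libraries 3 and 4 of cortical tamoxifen were high for many genes at once, and the median log2 change of all genes between cortical tamoxifen and control was 0.25, against 0.04 after TMM scaling, the trimmed-mean scaling of edgeR that was used for every test. Gene positions are those of the deposited tables, on mm10. All levels that follow are CPM after TMM scaling, in samples A and B, and all changes are log2 fold changes with their standard error (SE).

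Among the repressors, Per3 and Per2 were higher in both tamoxifen samples than in both controls of either region. Per3 (chr4:151003652-151044665, minus strand), a Per family member that is less needed for rhythm than Per1 and Per2, read 18.35 and 17.23 CPM in cortical controls, 20.46 and 20.75 in cortical tamoxifen, 12.87 and 14.45 in hippocampal controls and 21.91 and 19.54 in hippocampal tamoxifen. The lowest of the 4 tamoxifen samples lay above the highest of the 4 controls. Its fold change was 0.60 (SE 0.12) in hippocampus, 1.517-fold, and 0.21 (SE 0.12) in cortex. The hippocampal change ranked 10th by p-value of 18074 genes, with an unadjusted p of 0.00175 and a Benjamini-Hochberg adjusted p of 1 by edgeR, and so did not pass the test.

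Per2 (chr1:91415984-91459330, minus strand), the repressor most often used to report clock phase, read 8.129 and 9.269 CPM in cortical controls, 10.41 and 12.34 in cortical tamoxifen, 9.897 and 9.369 in hippocampal controls and 12.63 and 12.5 in hippocampal tamoxifen. Again no tamoxifen sample overlapped a control of either region. Its fold change was 0.39 (SE 0.14) in cortex and 0.38 (SE 0.14) in hippocampus, with unadjusted p of 0.0268 and 0.0275 by edgeR and adjusted p of 0.83 and 1. Per2 and Per3 were 2 of 110 genes, 0.609% of those tested, whose 4 tamoxifen samples all lay above the 4 controls. For Per3 the separation also held on plain totals, at 16.9 CPM for the lowest tamoxifen sample and 15.88 for the highest control, while on the deposited RPKM scale the lowest and the highest met at 1.052. On plain totals Per2 did not separate across both regions, at 8.596 CPM against 11.3. After TMM scaling, separation within each region was found for these same 2 genes of the 10 and for 2.98% of all genes.

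Per1 (chr11:69095217-69109960, plus strand), the Per gene that also responds quickly to neuronal activity and glucocorticoids, read 27.43 and 31.12 CPM in cortical controls and 31.45 and 43.7 in cortical tamoxifen. Hippocampal controls stood at 25.23 and 36.05 and hippocampal tamoxifen at 33.99 and 35.7. The cortical groups did not overlap, by a narrow margin, and the hippocampal groups did. The fold changes, 0.36 (SE 0.22) in cortex and 0.19 (SE 0.22) in hippocampus, were within 2 standard errors of 0.

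Of the cryptochromes, which form the repressive complex with the PER proteins, Cry2 (chr2:92403646-92434043, minus strand) read 42.87 and 41.52 CPM in hippocampal controls and 61.86 and 52.06 in hippocampal tamoxifen. Cortical samples read 64.57 and 68.45 in controls and 61.13 and 84.06 in tamoxifen. The hippocampal groups were apart while the cortical tamoxifen pair spanned both controls. The hippocampal fold change was 0.43 (SE 0.17, unadjusted p = 0.0404, adjusted p = 1, edgeR) and the cortical one 0.13 (SE 0.17). Cry1 (chr10:85131702-85185054, minus strand), the other cryptochrome, read 11.49 and 12.1 CPM in cortical controls, 10.97 and 10.48 in cortical tamoxifen, 9.512 and 9.735 in hippocampal controls and 11.53 and 9.946 in hippocampal tamoxifen. Its tamoxifen samples lay below the controls in cortex and above them in hippocampus, an arrangement found in 3.71% of all tested genes. The cortical value changed sign on plain totals, from -0.14 to 0.06.

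Neither activator passed the test in either region. Arntl (chr7:113207465-113314122, plus strand), which encodes the BMAL1 partner of the activating dimer, read 10.68 and 13.34 CPM in cortical controls, 7.87 and 12.07 in cortical tamoxifen, 10.78 and 12.91 in hippocampal controls and 10.07 and 9.433 in hippocampal tamoxifen. The hippocampal tamoxifen pair lay below its controls, and in cortex the groups overlapped. Fold changes were -0.27 (SE 0.23) in cortex and -0.28 (SE 0.23) in hippocampus, neither past the test. Clock (chr5:76212177-76304548, minus strand), which encodes its partner, read 49.65 and 43.27 CPM in cortical controls, 54.47 and 39.47 in cortical tamoxifen, 45.21 and 49.8 in hippocampal controls and 35.99 and 45.76 in hippocampal tamoxifen. It overlapped between groups in both regions, with fold changes of 0.02 (SE 0.19) and -0.22 (SE 0.19).

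The REV-ERB genes, repressors of Arntl, did not pass the test in either region. Nr1d1 (chr11:98767932-98775333, minus strand) read 59.09 and 64.04 CPM in cortical controls, 49.89 and 63.73 in cortical tamoxifen, 61.52 and 59.78 in hippocampal controls and 61.63 and 60.28 in hippocampal tamoxifen, with overlap in both regions. Nr1d2 (chr14:18204054-18239127, minus strand) read 41.95 and 45.58 CPM in cortical controls, 45.87 and 47.72 in cortical tamoxifen, 48.15 and 45.27 in hippocampal controls and 47.0 and 48.34 in hippocampal tamoxifen. Only the cortical Nr1d2 groups did not overlap, by less than the gap between the 2 controls. All 4 fold changes of the pair lay between -0.12 and 0.10.

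Dbp (chr7:45705088-45710155, plus strand), a PAR bZIP activator that is itself a direct target of CLOCK and BMAL1, read 50.26 and 49.03 CPM in cortical controls, 49.71 and 54.86 in cortical tamoxifen, 44.01 and 35.43 in hippocampal controls and 61.84 and 50.54 in hippocampal tamoxifen. The hippocampal tamoxifen samples were above both hippocampal controls, and the cortical groups overlapped. Its fold change was 0.50 (SE 0.16, unadjusted p = 0.015, adjusted p = 1, edgeR) in hippocampus, 1.415-fold, and 0.07 (SE 0.16) in cortex. In the GENCODE annotation of this build, exons of Dbp share 18% of their bases with Sphk2 on the opposite strand, and those of Nr1d1 share 8.55% with Thra. The strand setting of the counting is not given in the sources used here, so reads of these neighbours cannot be told apart here.

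**Figure D2:**
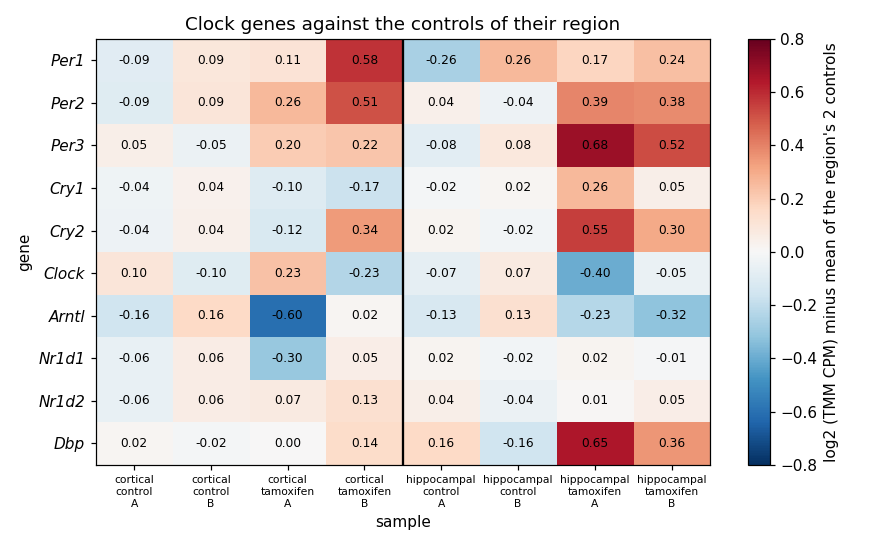
Each cell gives 1 gene (vertical axis) in 1 sample (horizontal axis) as log2 of its TMM-scaled CPM minus the mean of the 2 controls of the same region, coloured from -0.8 to 0.8. Per2 and Per3 are positive in all 4 tamoxifen samples, and the highest cells are Per3 (0.68) and Dbp (0.65) in hippocampal tamoxifen A.

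Counted over the 10 genes, none passed an adjusted p of 0.05 for tamoxifen in cortex or in hippocampus by edgeR, where 0% of all tested genes did in either region. In hippocampus 4 of the 10 had an unadjusted p under 0.05 (Per3, Per2, Dbp and Cry2, all higher with tamoxifen), against 3.61% of all genes in either direction and 2.14% in that direction. In cortex 1 did (Per2, higher), against 4.97% in either direction and 2.47% in that one. DESeq2 and limma voom with quality weights also called none of the 10 in either region. Fold changes were positive for 8 of 10 in hippocampus, where 48.7% of all genes were positive, and for 7 of 10 in cortex, where 55.4% were. The median over the 10 genes was 0.17 in hippocampus and 0.09 in cortex, beside -0.01 and 0.04 over all genes.

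Groups that did not overlap counted likewise. In hippocampus both tamoxifen samples exceeded both controls for 5 of the 10 (Per2, Per3, Cry1, Cry2 and Dbp) against 21% of all genes, and lay below for 1 (Arntl) against 18.9%. In cortex they exceeded both controls for 4 (Per1, Per2, Per3 and Nr1d2) against 16.2%, and lay below for 1 (Cry1) against 15%.

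Averaged over both regions, the mean tamoxifen effect was 0.41 (SE 0.09) for Per3, with an unadjusted p of 0.00223 and rank 16 of 18074, and 0.39 (SE 0.10) for Per2, with an unadjusted p of 0.00556 and rank 41. Dbp followed at 0.29 (SE 0.11, unadjusted p = 0.0352). Adjusted p by edgeR was 0.961 for each of these 3. None of the 10 passed, where 0.0111% of all genes did, and 3 of 10 had an unadjusted p under 0.05, against 3.62% of all genes in either direction and 2.29% among those higher. Fold changes were positive for 7 of 10, where 52.6% of all genes were positive. Without cortical tamoxifen sample A the mean effect passed for Per3 (0.41, adjusted p = 0.0472) and Per2 (0.44, adjusted p = 0.0379), when 926 genes passed in all. The cortical tamoxifen group is then sample B alone, the one that stood apart in mitochondrial share and oligodendrocyte markers. The size for Per3 stayed between 0.36 and 0.45 whichever sample was left out.

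**Figure D3:**
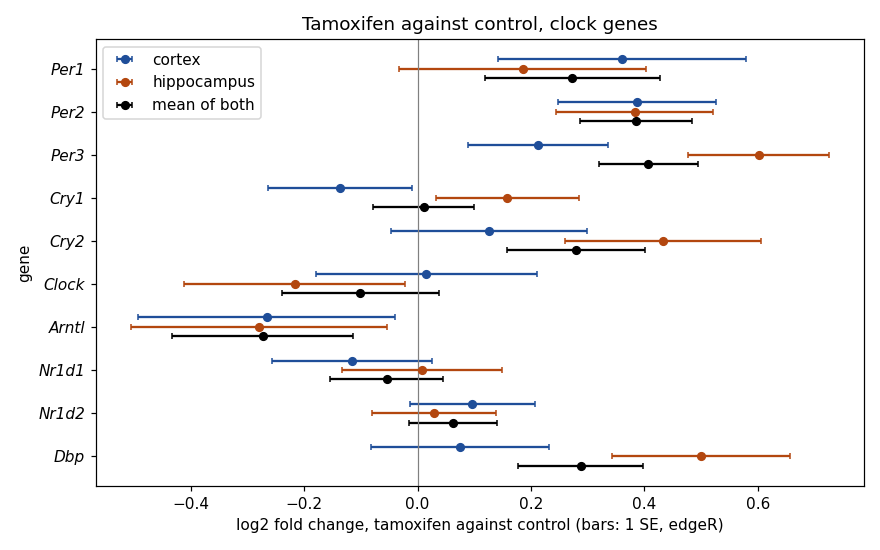
The plot gives the log2 fold change of tamoxifen against control (horizontal axis, linear) for each clock gene in cortex, in hippocampus and as the mean of both, with bars of 1 SE from edgeR. Per2 sits at 0.39 and 0.38 in the 2 regions, Per3 and Dbp lie farther right in hippocampus (0.60 and 0.50) than in cortex (0.21 and 0.07), and the Arntl points are on the left.

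The difference between the tamoxifen effects of the 2 regions was tested directly. It was 0.39 (SE 0.17, unadjusted p = 0.0603) for Per3, 0.43 (SE 0.22, unadjusted p = 0.0954) for Dbp, 0.31 (SE 0.24) for Cry2 and 0.30 (SE 0.18) for Cry1, with adjusted p from 0.889 to 0.928 by edgeR. None of the 10 had an unadjusted p under 0.05, against 5.43% of all genes, and 5 of the 10 differences were positive, against 45.8%, so the hippocampal changes of Per3, Dbp and Cry2 were not shown to differ from the cortical ones.

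Between regions, Cry2 was the only one of the 10 genes past the test. It was lower in hippocampus over both treatments by a log2 fold change of -0.50 (SE 0.12, adjusted p = 0.0325, edgeR), 0.7055-fold. Of all tested genes, 18.4% passed this comparison, 9.94% being lower in hippocampus and 8.42% higher, so 1 of 10 is near or below the background share. At an unadjusted p under 0.05 the count was also 1 of 10, against 35.1%, and 3 of 10 values were positive, against 50.1%. The call rested on few samples: leaving out any 1 of 6 of the 8 samples raised the adjusted p to between 0.0587 and 0.158, and on plain totals the value was -0.25 (adjusted p = 0.393). It passed without cortical tamoxifen A (adjusted p = 0.00251) and without cortical tamoxifen B (0.0221). Per3 came next at -0.19 (SE 0.09, adjusted p = 0.175), and the other 8 genes lay between -0.15 and 0.15. For Cry2 the regions overlapped by a small margin, at 61.86 CPM in hippocampal tamoxifen A and 61.13 in cortical tamoxifen A. All 4 hippocampal samples lay below all 4 cortical ones for 0 of the 10 genes, against 15.2% of all genes.

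**Figure D4:**
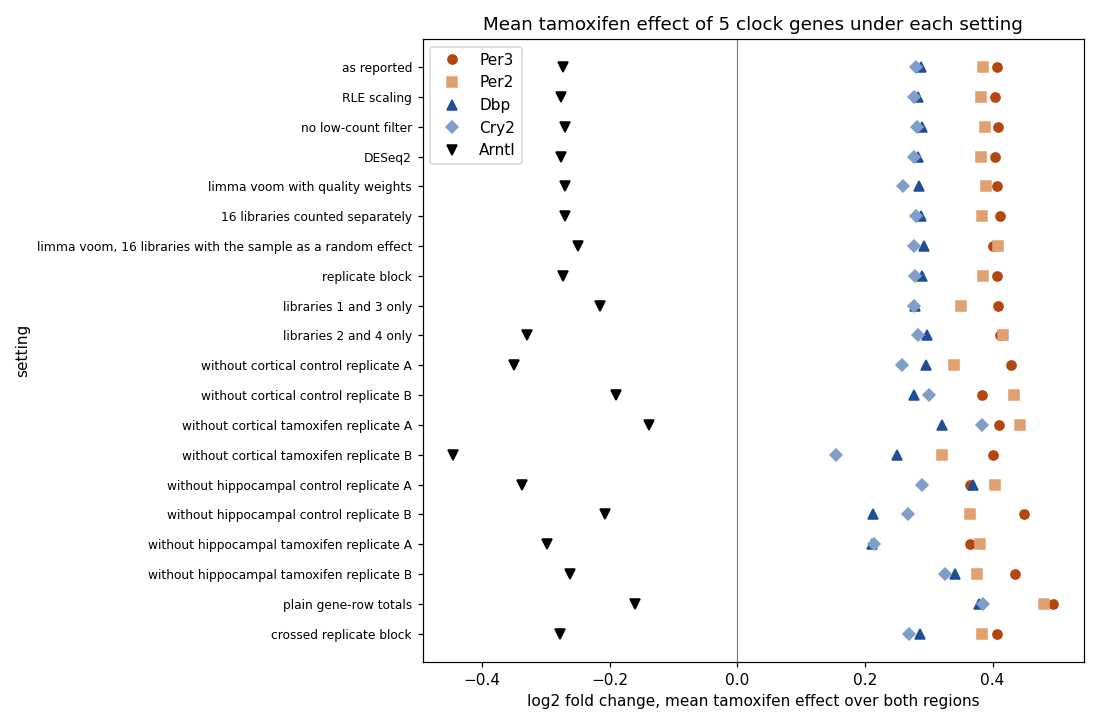
The plot shows the mean tamoxifen effect over both regions (horizontal axis, log2 fold change) of Per3, Per2, Dbp, Cry2 and Arntl under each of 20 settings (vertical axis). Per3 stays between 0.36 and 0.50 in all of them, Arntl is negative in all, and Cry2 moves most with cortical tamoxifen B.

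The wider clock genes were counted from 3 lists. Of 12 loop partners (receptors, PAR bZIP factors and other direct partners of the core loop), none passed for tamoxifen in either region by edgeR. In hippocampus 11 of the 12 were positive at a median of 0.24 (48.7% and -0.01 over all genes), and in cortex 6 were, at a median of 0.0098 (55.4% and 0.04 over all genes). In the mean all 12 were positive, at a median of 0.07, where 52.6% of all genes were positive at a median of 0.01. Gm129, an older symbol of Ciart, a repressor of CLOCK and BMAL1, had the largest of these at 0.65 (SE 0.25, unadjusted p = 0.037), from 1.697 and 1.423 CPM in cortical controls, 2.16 and 3.353 in cortical tamoxifen, 1.924 and 1.083 in hippocampal controls and 1.905 and 2.271 in hippocampal tamoxifen. Hippocampal control and tamoxifen samples overlapped by a small margin.

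Rorb, the neuronal ROR receptor that opposes REV-ERB, had opposite values in the 2 regions. It read 49.31 and 44.91 CPM in cortical controls, 37.36 and 33.41 in cortical tamoxifen, 26.22 and 25.4 in hippocampal controls and 40.18 and 32.28 in hippocampal tamoxifen. The groups did not overlap in either region. The difference of its effects was 0.90 (SE 0.20, unadjusted p = 0.00293, adjusted p = 0.889, edgeR), from -0.41 in cortex (unadjusted p = 0.0237) and 0.49 in hippocampus (unadjusted p = 0.0112). Rora, a second ROR receptor, had a difference of 0.51 (unadjusted p = 0.0313), and Hlf, a PAR bZIP factor like Dbp, a hippocampal value of 0.41 (unadjusted p = 0.0185). Between regions 4 of the 12 were lower in hippocampus and passed, against 9.94% of all genes: Hlf at -0.62, Npas2, which can stand in for Clock, at -0.72, Rora at -0.53 and Rorb at -0.42. Tef (-0.32) and Arntl2 (-0.89) had an unadjusted p under 0.05 there without passing.

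Of 15 genes whose products modify clock proteins (kinases, phosphatases and ubiquitin ligases), none passed for tamoxifen in either region or in the mean. In the mean 9 were positive, where 52.6% of all genes were. The smallest p belonged to Fbxl21, a ligase of cryptochromes, at 0.22 (unadjusted p = 0.22, edgeR). Prkaa2, a subunit of the kinase AMPK, had a cortical value of 0.59 (unadjusted p = 0.0388) and a difference between regions of -0.92 (unadjusted p = 0.0264). Between regions 1 of the 15 passed, against 18.4% of all genes: Gsk3b, a kinase of REV-ERB and other clock proteins, at -0.52. Csnk1e (-0.37), Usp7 (-0.21), Fbxl17 (-0.28), Btrc (-0.33) and Prkaa1 (0.27) had an unadjusted p under 0.05 there, as did 35.1% of all genes.

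Of 12 genes known to cycle in many tissues, none passed for tamoxifen, and 4 were positive in the mean, where 52.6% of all genes were. Cdkn1a, a cell cycle inhibitor, had a cortical value of -0.46 (unadjusted p = 0.0476) and a mean of -0.39 (unadjusted p = 0.0247). Ppp1r3c, a glycogen regulator, had a cortical value of -0.46 (unadjusted p = 0.0229) and a difference between regions of 0.60 (unadjusted p = 0.031). Between regions Sgk1 was higher in hippocampus (1.29), and Wee1 (-0.52) and Klf9 (-0.54) were lower, all 3 past the test, which 18.4% of all genes passed, while Rbm3 (0.46) had an unadjusted p under 0.05 only.

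Marker sums of other cell types moved between these samples too. Summed astrocyte markers read 9709 and 10480 CPM in cortical controls, 7794 and 7223 in cortical tamoxifen, 7606 and 8241 in hippocampal controls and 10230 and 9291 in hippocampal tamoxifen. They were thus lower with tamoxifen in cortex, with 8 of 8 markers negative, and higher in hippocampus, with 7 of 8 positive. Of all genes, 55.4% were positive in cortex and 48.7% in hippocampus. Per2 and Per3 were higher in both regions. Summed inhibitory neuron markers were 122.8 and 135.1 CPM in cortical controls and 117 and 215.1 in cortical tamoxifen, with overlap. They were 58.93 and 65.1 in hippocampal controls and 96.51 and 80.65 in hippocampal tamoxifen. In hippocampus both tamoxifen sums thus exceeded both controls, as for Per2, Per3, Cry1, Cry2 and Dbp. Of the 6 markers, 6 were positive in hippocampus and 5 in cortex, beside 48.7% and 55.4% of all genes. The part of astrocyte and inhibitory neuron markers in these results was not tested. Of 6 markers of the suprachiasmatic nucleus, 5 stayed under 1 CPM in all 8 samples (Vipr2, Six6, Lhx1, Nms and Avp), and Rgs16, the other one, lay between 1.815 and 3.793.

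The genes most like 3 of the clock genes were found by Pearson's r of log2 CPM, centred on each region, over the 8 samples and among 12682 genes. They describe these 8 samples, which come from both treatments. Values were centred on region only, so a difference between treatments stays in r. Dbp was closest to Ccdc28b (0.9888), Cbln1 (0.9669) and Cep170b (0.958), Per3 to Erc1 (0.975), Tmem178b (0.9696) and Lancl3 (0.9629), and Arntl to Zw10 (0.9825), Tbl1x (0.9757) and Psmd7 (0.9677). Of the 12682 genes, 60 had an r over 0.9 with Dbp, 28 with Per3 and 26 with Arntl. The share of genes at lower values of r was not counted. Among the clock genes themselves, Dbp ran with Cry2 (0.8551), Per3 (0.8022) and Per2 (0.7085) and against Clock (-0.7197). Per3 ran with Cry2 (0.7756) and Per2 (0.7744) and against Arntl (-0.4701), while Arntl was closest to Nr1d1 (0.8099).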

How the data were processed

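Total RNA was extracted with Trizol and sequenced, per the labels' protocols. The submitters' processing notes name STAR, HTSeq and the build mm10. The sources used here give no version, annotation release or strand setting.

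The deposited tables hold whole-number counts per gene and the authors' RPKM values. The RPKM values were recomputed from the counts, the deposited lengths and each library's total over all rows, unassigned reads included (99.9974% matched). Reads mapped to several places (27.53% to 35.43%) and reads in no feature (3.64% to 7.93%) stayed out of the CPM totals and the tests. They were part of the total behind the RPKM values.

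Counts of libraries 1 and 2, and of 3 and 4, were added to samples A and B. edgeR 4.0.16 (R 4.3.3) with TMM scaling, filterByExpr, 1 mean per group and robust quasi-likelihood tests gave 5 comparisons, with Benjamini-Hochberg adjustment over 18074 genes and a threshold of 0.05. Alternatives used DESeq2 1.42.0, limma 3.58.1, other scalings and filters, each sample left out and 16 separate libraries. The script was tested on simulated data with 200 changed genes. All 10 clock genes are named. Of the 39 wider genes, those with an unadjusted p under 0.05 and the smallest p of each list in the mean effect are named, except for a result that is not reported here, and so are the 3 genes most like Dbp, Per3 and Arntl with at least 1 CPM. Members and lists were chosen with earlier results of these data known. Ciart was matched through its older symbol.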

Additional observations from a re-analysis of the deposited data

How the results depend on the processing

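Of 836 recomputed fold changes of the clock genes, 776 kept direction and side of the threshold, 41 reversed, 11 came to pass and 8 no longer passed. For the difference between the tamoxifen effects of the regions, only 76 values were counted, all kept, and some clock genes were left out. Among those left out, Arntl turned from -0.014 to 0.0086 and Per2 from -0.0042 to 0.016 with RLE, another scaling. The sign changes listed below do not cover this difference. The replicate numbers did not pair the samples (correlations of A minus B from -0.405 to 0.283). With a replicate block none of the clock genes passed between regions (Cry2 -0.50, adjusted p = 0.064), 2110 genes against 3318 passed in all, and 0 against 2 for the mean tamoxifen effect. A crossed replicate block, added after seeing the data, also called 0 for the mean effect. The block changed no other call of a clock gene.
Counted as 16 separate libraries, which treats paired libraries as independent, 1 clock gene passed in cortex, 4 in hippocampus, 2 in the mean and 3 between regions, among 562, 318, 133 and 8480 genes, with 867 for the difference. With the sample as a random effect limma voom called 15, 3, 4 and 5029 genes, and 112 for the difference. DESeq2 called 8 genes in cortex, 8 in hippocampus, 4 for the difference and 14 for the mean. Without the low-count filter 1 gene passed in cortex and 1 in the mean, and 0 passed in the mean with quality weights, with libraries 1 and 3 only or with libraries 2 and 4 only.
On plain totals, also added after seeing the data, 0 clock genes passed between regions, and signs turned for Cry1 (0.06) and Nr1d1 (0.12) in cortex, Nr1d1 (-0.026) and Nr1d2 (-0.0057) in hippocampus, Nr1d1 (0.046) in the mean, and Per1 (0.22), Per3 (0.078), Clock (0.20), Arntl (0.22), Cry1 (0.12) and Dbp (0.15) between regions. Clock in cortex turned to -0.024 with the random effect and to -0.0044 with libraries 2 and 4 only, which also turned Arntl between regions (0.028). Cry1 in the mean turned to -0.026 with libraries 1 and 3 only.
Leaving out each sample gave 0 to 2 clock genes in the mean (2 without cortical tamoxifen A) and 0 to 1 between regions, among 0 to 2014 genes in cortex, 0 to 926 in the mean and 369 (without cortical control B) to 6144 between regions, each highest count being without cortical tamoxifen A. Values that crossed 0 ran in cortex from -0.24 to 0.23 (Clock), -0.61 to 0.0058 (Arntl), -0.12 to 0.34 (Cry2) and -0.31 to 0.047 (Nr1d1). In hippocampus they ran from -0.050 to 0.46 (Per1), -0.015 to 0.027 (Nr1d1) and -0.015 to 0.073 (Nr1d2). In the mean they ran from -0.23 to 0.0053 (Clock), -0.045 to 0.048 (Cry1) and -0.15 to 0.027 (Nr1d1). Between regions they ran from -0.16 to 0.11 (Per1), -0.19 to 0.043 (Clock), -0.16 to 0.15 (Arntl), -0.041 to 0.13 (Nr1d1) and -0.19 to 0.0059 (Dbp). With 1 sample left in a group, that sample is assumed to vary like the others. The causes were not tested.
The lowest count of a clock gene in a library was 233, for Arntl. Whether depth limited Arntl or the other low genes was not tested.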

Other observations

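Per1 and Per2 are also known as genes that neuronal activity and glucocorticoids induce, so both kinds of gene were read in the same fit. Of 8 activity genes, none passed for tamoxifen by edgeR. Positive values were found for 3 in cortex (55.4% of all genes), 2 in hippocampus (48.7%) and 3 in the mean (52.6%). Arc, a synaptic immediate early gene, read 46.66 and 83.53 CPM in cortical controls, 115.1 and 155.9 in cortical tamoxifen, 38.54 and 48.19 in hippocampal controls and 75.12 and 51.7 in hippocampal tamoxifen. Both regions were thus apart, and its mean effect was 0.80 (SE 0.23, unadjusted p = 0.00942, adjusted p = 0.961). Nr4a1, a nuclear receptor of the same class, had a mean effect of 0.27 (SE 0.11, unadjusted p = 0.0368). Fos read 44.26 CPM in cortical tamoxifen B against 148.6 to 163.3 in the other cortical samples, and its mean effect was -0.34 (SE 0.38). Between regions 4 of the 8 were higher in hippocampus and 2 lower, against 8.42% and 9.94% of all genes, Arc among the lower at -0.84. Arc, Nr4a1 and Fos were chosen after their values were seen.

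Of 6 glucocorticoid-responsive genes, some of which are also in the list of cycling genes, none passed for tamoxifen. Their mean effects were positive for 2, where 52.6% of all genes were positive. Fkbp5, a chaperone partner of the glucocorticoid receptor, read 11.8 and 15.34 CPM in cortical controls, 13.15 and 19.51 in cortical tamoxifen, 16.08 and 19.99 in hippocampal controls and 19.72 and 17.16 in hippocampal tamoxifen, with overlap in both regions.

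Of 169 tested genes within 5 Mb of Per3, 8 (4.73%) had an unadjusted p under 0.05 in the mean tamoxifen effect, beside 3.62% of all genes.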
